A study of Homo sapiens with 36 samples.

Results

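The comparison described here sets MIA PaCa-2 cells carrying a guide against PELO, with doxycycline (dox) for 48 h, against MIA PaCa-2 cells carrying a guide against HBS1L, also with dox for 48 h. The members were chosen by their sample titles and number 6 of the 36 libraries of the series, 3 for each guide. MIA PaCa-2 is an established cell line from a human pancreatic carcinoma. Every group of the series carries dox-inducible Cas9 and a guide and was grown in RPMI medium with 10% serum free of tetracycline. Dox at 2 µg/mL induces the knockout, so a guide line without dox is the same line uninduced. Polyadenylated RNA was sequenced. Beside the 6 libraries stand 3 of the PELO guide and 3 of the HBS1L guide without dox at 48 h, 3 of each of these guides with dox at 96 h, and a non-targeting control guide (NTC) with and without dox at 48 h, 3 libraries each. The labels give neither the guide sequences nor the number of guides per gene, nor whether a line is 1 clone, so a guide cannot be told apart from the line that carries it. Nothing in the labels tells if the 3 replicates of a group came from cultures of their own. The p-values therefore rest on the spread among libraries, which may be technical.

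PELO (Pelota) and HBS1L, a GTPase, act as a pair. PELO sits in the empty decoding site of a ribosome stalled at the end of a broken message or in a collision, HBS1L delivers it there, and with the ATPase ABCE1 the ribosome is split into its subunits. The SKI complex then feeds the freed message into the RNA exosome, which degrades it from its 3′ end. FOCAD, whose protein stabilises the SKI complex, had at most 1 count in any library. The series record puts the question for lines whose SKI complex is unstable and in which PELO or HBS1L is removed. The comparison of both guides with dox asks in which messages the loss of one partner differs from the loss of the other.

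Levels are given in CPM, in which each count is divided by its library's size as scaled by the TMM method. Group means are given ± SD over 3 libraries where an error stands beside them. CPM values hold no correction for length, so they are compared between libraries and not between genes. Differences are log2 fold changes ± SE, PELO dox over HBS1L dox, from edgeR's quasi-likelihood F test. A gene is called higher or lower where its p-value, adjusted over 20767 genes tested by the Benjamini-Hochberg method, is under 0.05. The 3 PELO dox libraries held 47853059 to 50217574 counts and the 3 HBS1L dox libraries 54467578 to 66704841, so that 3 counts were worth 0.0438 to 0.0638 CPM. The labelled epithelial origin showed in part of its markers: KRT8, a keratin of simple epithelia, averaged 1498 CPM in PELO dox and 1625 CPM in HBS1L dox libraries, while EPCAM and CDH1, the gene for E-cadherin, had at most 2 counts in any of the 6. PTPRC, a defining leukocyte marker, PECAM1, an endothelial one, and DCN, a fibroblast one, had at most 2 counts too. Other markers of these cell types were expressed. The fibroblast markers tested summed to 91.7 to 101 CPM in PELO dox and 191 to 202 CPM in HBS1L dox libraries. The endothelial markers tested summed to 56.3 to 64.4 CPM in PELO dox and 75.5 to 83.9 CPM in HBS1L dox libraries. For leukocyte markers the sums were 28.5 to 28.8 CPM and 28.3 to 30.6 CPM.

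PELO dox replicate 1 stood apart from the other libraries of its group. It differed from replicates 2 and 3 of its group by a chi-square of 17.4 and 18.01 per degree of freedom over the genes, against 1.81 between replicates 2 and 3. Within HBS1L dox the values were 1.98, 5.25 and 5.43. Coding genes with at least 10000 exonic bases, 1551 genes, took 11.9% of the counts in PELO dox replicate 1 and 10.7% and 10.6% in replicates 2 and 3, against 9.63%, 9.51% and 9.88% in the HBS1L dox libraries. Mitochondrial transcripts took 2.19% of the counts in PELO dox replicate 1, 2.84% and 2.67% in replicates 2 and 3, and 3.16% to 3.33% in HBS1L dox libraries. The part of these shifts in single differences was not tested. For some results the value without that library or with an offset for exonic length is given beside them.

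HBS1L messages were low in the cells with the HBS1L guide and dox. HBS1L (ENSG00000112339.15, chr6:134960378-135103056, - strand, GRCh38) had 124, 131 and 128 CPM in the PELO dox libraries and 36.1, 37.2 and 35.4 CPM in the HBS1L dox libraries. The groups lay far apart and each was tight (log2 fold change 1.81 ± 0.03, adjusted p = 2.25e-31). The NTC dox libraries, at 135 ± 1.29 CPM, stood near the PELO dox level. Without dox the difference was already present but small, with 132 ± 1.54 CPM in the PELO line and 105 ± 1.75 CPM in the HBS1L line (log2 fold change 0.33 ± 0.03, adjusted p = 5.31e-09). At 96 h the PELO dox libraries held 221 ± 4.41 CPM against 33.8 ± 0.332 CPM in HBS1L dox libraries (log2 fold change 2.71 ± 0.03, adjusted p = 3.31e-37).

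PELO messages differed little. PELO (ENSG00000152684.11, chr5:52787940-52804046, + strand) had 20.9, 20.2 and 20.9 CPM in PELO dox libraries against 25.2, 22.9 and 25.4 CPM in HBS1L dox libraries. All PELO dox values lay below all HBS1L dox values, yet the gap was small (log2 fold change -0.25 ± 0.06, adjusted p = 2.44e-04), and the dox responses of the lines did not differ past the threshold (log2 difference -0.09 ± 0.08, adjusted p = 0.385). At 96 h the levels were 28.3 ± 1.46 CPM in PELO dox and 28.2 ± 0.977 CPM in HBS1L dox libraries (adjusted p = 0.983). A count per gene does not show whether the guide cut the coding sequence, so these values do not tell whether the protein was lost. PELO lies inside the gene ITGA1, whose exons on the same strand overlap 10.9% of its exonic length.

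**Figure D1:**
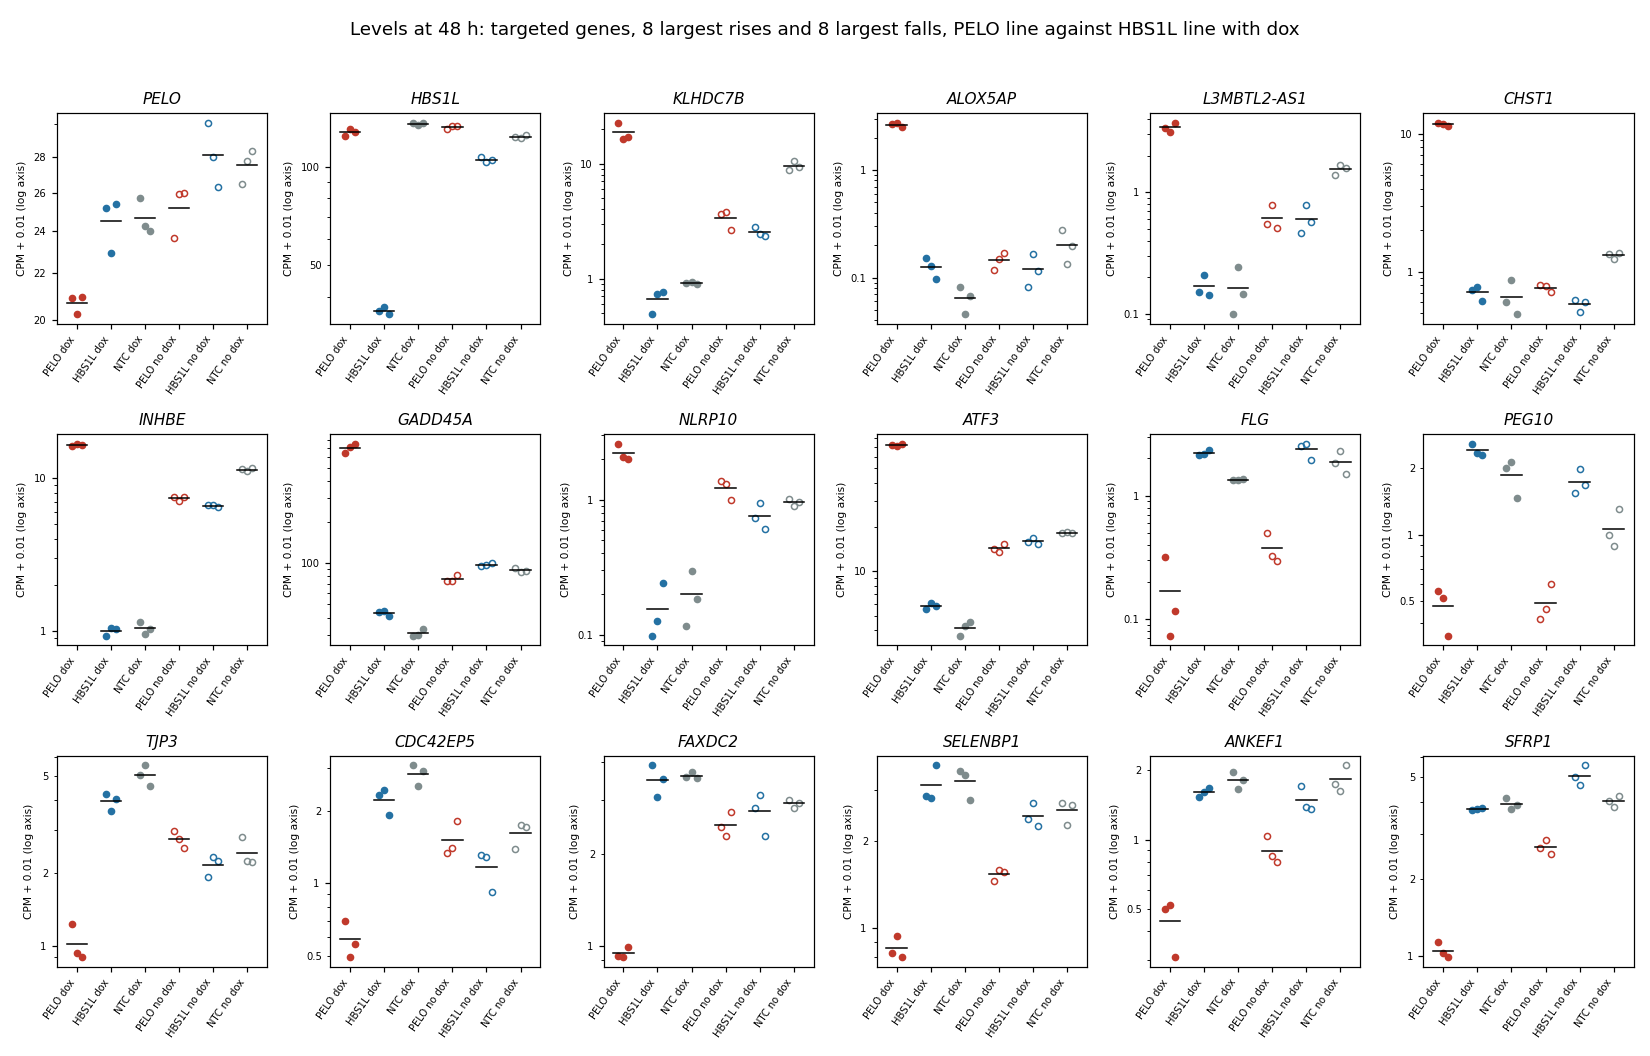
CPM + 0.01 on a log axis for the targeted genes PELO and HBS1L and for the 8 largest rises and 8 largest falls, in 6 groups of 3 libraries at 48 h. Points are libraries, filled with dox and open without, and bars are group means. HBS1L was lowest in HBS1L dox libraries, the 8 rises were highest in PELO dox libraries, and FLG and PEG10 were low in the PELO line without dox too.

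Other rescue factors were mostly somewhat higher in PELO dox cells. Of 9 rescue genes tested, 6 were called higher, among them HBS1L, the target of the other guide, and 1, PELO itself, lower, where 28.9% of all genes tested were called higher and 31.1% lower. Of the 7 that no guide targets, 5 were called higher and 0 lower. GTPBP2, a GTPase of the HBS1L kind that binds PELO, had 151, 145 and 140.0 CPM in PELO dox libraries against 48.2, 49.4 and 48.6 CPM in HBS1L dox libraries (log2 fold change 1.58 ± 0.06, adjusted p = 8.61e-23). Its relative GTPBP1 stood at 46.5 CPM in PELO dox against 37.8 CPM in HBS1L dox libraries (log2 fold change 0.30 ± 0.06). The termination factors ETF1 and GSPT1 had log2 fold changes of 0.36 and 0.31. ABCE1, the ATPase that splits the ribosome, had 128 CPM in PELO dox and 122 CPM in HBS1L dox libraries and did not pass the test (adjusted p = 0.182).

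Genes that sense collided ribosomes or clear the unfinished chains were called higher in 12 cases and lower in 1 of 22 (median log2 fold change 0.21, against -0.05 over all genes tested). ZNF598, the ubiquitin ligase that marks collided ribosomes, averaged 131 ± 7.50 CPM in PELO dox libraries and 72.5 ± 2.03 CPM in HBS1L dox libraries (log2 fold change 0.85 ± 0.04, adjusted p = 7.68e-20). RNF25, a ligase that acts on stalled translation, stood at 34.4 CPM in PELO dox against 19.0 CPM in HBS1L dox libraries (log2 fold change 0.86 ± 0.06). EIF4E2, the cap-binding partner that silences faulty messages, was lower, at 66.2 CPM in PELO dox against 82.8 CPM in HBS1L dox libraries (log2 fold change -0.32 ± 0.05), and an antisense gene overlaps 24.2% of its exons. With the length-dependent offset, and with library totals in place of TMM, 3 members of this list were called lower.

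Among SKI and exosome genes, 10 of 20 were called higher and 5 lower (median 0.14), and HBS1L is counted in this list too. Of all genes tested, 28.9% were called higher and 31.1% lower. The scaffold gene SKIC3 had 75.02, 69.8 and 69.7 CPM in PELO dox libraries against 91.9, 89.9 and 91.2 CPM in HBS1L dox libraries (log2 fold change -0.35 ± 0.05, adjusted p = 4.91e-07). NTC dox libraries held 107 ± 4.14 CPM, above both. DIS3L, the catalytic subunit of the cytoplasmic exosome, was higher, at 39.6 CPM in PELO dox against 30.9 CPM in HBS1L dox libraries (log2 fold change 0.36 ± 0.04).

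Over the whole transcriptome the difference was wide. With dox at 48 h, 12459 of 20767 genes (60.0%) were called, 6010 (28.9%) higher and 6449 (31.1%) lower in PELO dox cells. At least 2-fold apart were 1980 (9.53%), of which 869 (4.18%) were higher and 1111 (5.35%) lower. The 3 libraries of one guide all lay above the 3 of the other in 13457 genes (64.8%). Among genes with a mean over 100 CPM, 82 were called 2-fold higher and 6 were called 2-fold lower. Without PELO dox replicate 1, 11447 genes were called, 799 of them 2-fold higher and 999 2-fold lower. Which direction held more of the genes called changed with the scaling. With DESeq2 size factors in place of TMM 6301 were called higher and 6085 lower, and with library totals 5170 and 7531.

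The 8 largest rises among genes at 1 CPM or more were KLHDC7B, ALOX5AP, L3MBTL2-AS1, CHST1, INHBE, GADD45A, NLRP10 and ATF3. They ran from a log2 fold change of 3.63 ± 0.09 for ATF3 to 4.82 ± 0.18 for KLHDC7B, and the adjusted p-values were at most 7.12e-15. KLHDC7B (ENSG00000130487.9, chr22:50545891-50551023, + strand) had 22.8, 16.3 and 17.1 CPM in PELO dox libraries against 0.480, 0.718 and 0.759 CPM in HBS1L dox libraries. GADD45A (ENSG00000116717.13, chr1:67685061-67688338, + strand), a growth arrest gene induced by DNA damage and by stress, had 639, 711 and 743 CPM in PELO dox against 43.6, 45.0 and 41.0 CPM in HBS1L dox libraries. No PELO dox library came near an HBS1L dox library in either gene.

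ALOX5AP (ENSG00000132965.10, chr13:30713478-30764426, + strand), which presents arachidonic acid to 5-lipoxygenase for leukotriene synthesis, had 2.64, 2.74 and 2.49 CPM in PELO dox libraries and 0.142, 0.117 and 0.0876 CPM in HBS1L dox libraries. CHST1 (ENSG00000175264.8, chr11:45648877-45665622, - strand), a sulfotransferase of keratan sulfate, had 12, 11.7 and 11.4 CPM in PELO dox and 0.729, 0.768 and 0.599 CPM in HBS1L dox libraries. Neither averaged more than 1.31 CPM in any other group at 48 h. At 96 h ALOX5AP was at 12.3 ± 0.452 CPM in PELO dox libraries against 0.371 ± 0.0615 CPM in HBS1L dox libraries.

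INHBE (ENSG00000139269.3, chr12:57452323-57459280, + strand), a secreted member of the TGF-beta family, had 16.2, 16.7 and 16.3 CPM in PELO dox libraries against 0.924, 1.04 and 1.02 CPM in HBS1L dox libraries. ATF3 (ENSG00000162772.17, chr1:212565334-212620777, + strand), a transcription factor of the stress response, had 72.2, 70.5 and 73.3 CPM in PELO dox against 5.54, 6.11 and 5.75 CPM in HBS1L dox libraries. NLRP10 (ENSG00000182261.5, chr11:7959424-7965426, - strand), of the NOD-like receptor family, had 2.56, 2.07 and 1.98 CPM in PELO dox against 0.0889, 0.117 and 0.234 CPM in HBS1L dox libraries. For these genes, for KLHDC7B and for L3MBTL2-AS1 the untreated lines lay between both dox groups: INHBE averaged 7.36 ± 0.241 CPM in the PELO line and 6.56 ± 0.0938 CPM in the HBS1L line without dox. L3MBTL2-AS1 (ENSG00000235513.2, chr22:41209122-41217627, - strand) averaged 3.39 ± 0.304 CPM in PELO dox and 0.158 ± 0.0371 CPM in HBS1L dox libraries. L3MBTL2 on the other strand overlaps 37.5% of its exons, and the labels do not say whether counting used the strand, so its reads and those of L3MBTL2 cannot be told apart.

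The 8 largest falls were smaller and lay in scarce messages: FLG, PEG10, TJP3, CDC42EP5, FAXDC2, SELENBP1, ANKEF1 and SFRP1, all under 5 CPM in each of the 6 libraries. FLG (ENSG00000143631.11, chr1:152302175-152325203, - strand), the gene for filaggrin of the skin barrier, had 0.305, 0.0633 and 0.106 CPM in PELO dox libraries against 2.13, 2.17 and 2.32 CPM in HBS1L dox libraries (log2 fold change -3.77 ± 0.38, adjusted p = 4.80e-10). In PELO dox replicate 2, 0.0633 CPM is worth 3 counts, so the size of this fold change rests on few counts. PEG10 (ENSG00000242265.6, chr7:94656325-94669695, + strand), an imprinted gene of retroviral origin, had 0.549, 0.506 and 0.340 CPM in PELO dox against 2.56, 2.34 and 2.28 CPM in HBS1L dox libraries (log2 fold change -2.35 ± 0.19, adjusted p = 2.82e-13). The PELO line had little of either without dox. FLG averaged 0.363 ± 0.111 CPM in the PELO line and 2.36 ± 0.373 CPM in the HBS1L line without dox, and PEG10 0.483 ± 0.0960 CPM in the PELO line and 1.73 ± 0.226 CPM in the HBS1L line. In neither gene did the dox responses of the lines differ past the threshold (adjusted p = 0.164 for FLG and 0.152 for PEG10).

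The other falls ran from a log2 fold change of -1.85 ± 0.11 for SFRP1, which binds Wnt proteins outside the cell, to -1.95 ± 0.16 for TJP3, a scaffold of tight junctions. TJP3 (ENSG00000105289.15, chr19:3708109-3750813, + strand) had 1.22, 0.928 and 0.893 CPM in PELO dox libraries against 4.21, 3.59 and 4.03 CPM in HBS1L dox libraries. CDC42EP5 (ENSG00000167617.3, chr19:54465026-54473264, - strand), which binds the GTPase CDC42, had 0.691, 0.485 and 0.553 CPM in PELO dox against 2.31, 2.42 and 1.91 CPM in HBS1L dox libraries. In both genes the means of the untreated lines lay between those of the dox groups. SELENBP1, a selenium-binding oxidase, averaged 0.843 ± 0.0753 CPM in PELO dox and 3.11 ± 0.468 CPM in HBS1L dox libraries. FAXDC2, of the fatty acid hydroxylase family, averaged 0.933 ± 0.0390 CPM in PELO dox and 3.48 ± 0.409 CPM in HBS1L dox libraries. ANKEF1 averaged 0.431 ± 0.116 CPM in PELO dox and 1.60 ± 0.0685 CPM in HBS1L dox libraries, and SFRP1 1.04 ± 0.0729 CPM in PELO dox and 3.73 ± 0.0441 CPM in HBS1L dox libraries.

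Genes of the integrated stress response had the highest median difference of the 31 lists compared. In this response a kinase phosphorylates the initiation factor eIF2, most translation slows, and the transcription factor ATF4 is made and raises genes of amino acid supply and of cell death. Of 38 members tested 37 were called higher and 0 lower in PELO dox cells, 25 of them at least 2-fold, with a median log2 fold change of 1.48 against -0.05 over all genes tested. The exception, SERINC2, averaged 5.12 CPM in PELO dox and 4.89 CPM in HBS1L dox libraries. The same number was called without PELO dox replicate 1 and with the length-dependent offset. STC2, listed but not tested, had at most 2 counts in the 6 libraries.

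TRIB3, a pseudokinase that ATF4 induces and that holds AKT in check, had 324, 318 and 313 CPM in PELO dox libraries against 51.5, 50.7 and 53.7 CPM in HBS1L dox libraries (log2 fold change 2.62 ± 0.06, adjusted p = 1.58e-28). CEBPB, a partner of ATF4 on DNA, had 206, 203 and 204 CPM in PELO dox and 51.2, 54.0 and 52.4 CPM in HBS1L dox libraries (log2 fold change 1.96 ± 0.05, adjusted p = 7.81e-28). In both genes the groups were separated by more than the range within either. ATF4 itself stood at 728 CPM in PELO dox against 259 CPM in HBS1L dox libraries (log2 fold change 1.49 ± 0.06). DDIT3, the gene for CHOP, stood at 54.9 CPM in PELO dox against 13.7 CPM in HBS1L dox libraries (log2 fold change 2.01 ± 0.08), and PPP1R15A, which brings the phosphatase back to eIF2, at 356 CPM in PELO dox against 81.5 CPM in HBS1L dox libraries (log2 fold change 2.13 ± 0.06). GDF15, a secreted stress hormone, reached 116 CPM in PELO dox against 13.4 CPM in HBS1L dox libraries (log2 fold change 3.12 ± 0.09). The smallest differences called lay in PSPH and SHMT2, enzymes of serine metabolism, and in SLC38A2, an amino acid transporter, at log2 fold changes of 0.33, 0.35 and 0.41.

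Set beside the uninduced lines, it was the HBS1L dox libraries whose summed level lay farther away. Summed over the 38 genes, the PELO dox libraries held 7613 to 7910.2 CPM, the HBS1L dox libraries 3546 to 3667 CPM, the PELO line without dox 6808 to 6995 CPM and the HBS1L line without dox 6373 to 6612 CPM. The NTC line held 3673 to 3738 CPM with dox and 8016 to 8281 CPM without dox. Group means with dox lay below those without dox in 37 of the 38 genes in the HBS1L line and in 37 in the NTC line, but in 15 in the PELO line. The median log2 ratio of dox over no dox, with 0.1 CPM added, was -1.07 in the HBS1L line, -1.38 in the NTC line and 0.10 in the PELO line. These ratios are given as a description, with no test.

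Members differed in where the PELO dox level lay beside the uninduced lines. ATF3 averaged 72.0 CPM in PELO dox libraries, 14.4 CPM in the PELO line without dox and 18.2 CPM in the NTC line without dox. PPP1R15A averaged 356 CPM in PELO dox libraries, 121 CPM in the PELO line without dox and 129 CPM in the NTC line without dox. In these genes the PELO dox level was the highest of the 6 groups at 48 h. SLC7A11, the cystine importer, averaged 34.0 CPM in PELO dox libraries, 50.7 CPM without dox in that line and 83.2 CPM in the NTC line without dox, and its HBS1L dox level was 12.2 CPM. ASNS, the asparagine synthetase, averaged 128 CPM in PELO dox, 60.1 CPM in HBS1L dox and 129 CPM in PELO libraries without dox. In these genes the PELO dox mean lay above that of HBS1L dox but not above that of the uninduced PELO line.

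**Figure D2:**
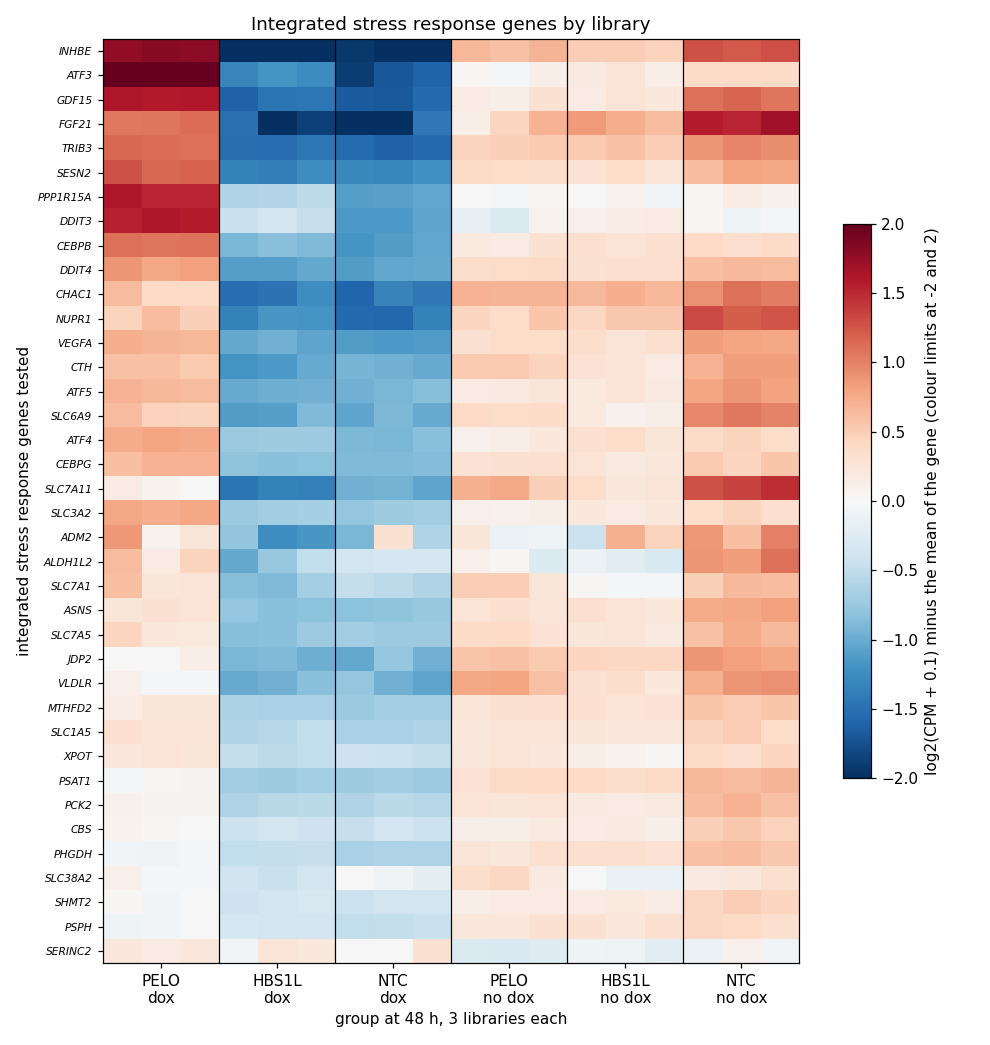
Each row is 1 of the 38 integrated stress response genes tested and each column 1 of 18 libraries at 48 h. Colour is log2(CPM + 0.1) minus the mean of the gene, with colour limits at -2 and 2, and rows are ordered by the difference between PELO dox and HBS1L dox libraries. HBS1L dox and NTC dox libraries were low in most rows, and PELO dox libraries were the highest of the 6 groups in rows such as ATF3 and DDIT3, whereas NTC libraries without dox were the highest in FGF21.

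The promoters of 30 of the 37 members called higher were found among RefSeq promoter windows on GRCh38.p14, which run from 250 bases before to 50 bases after a start. The letters TTGCATC, the core of the element that ATF4 reads with a C/EBP partner, stood on either strand in 2 of the 30 (6.67%), in 184 of 12115 promoters of genes tested (1.52%) and in 662 of 27305 promoters in all (2.42%). Both are shown because they hold these letters; they fall outside the rule for named genes and were chosen after their values were seen. CHAC1, whose enzyme breaks down glutathione, stood at 23.2 CPM in PELO dox against 6.20 CPM in HBS1L dox libraries (log2 fold change 1.90 ± 0.10). FGF21, a secreted hormone, stood at 1.34 CPM in PELO dox against 0.0933 CPM in HBS1L dox libraries (log2 fold change 3.83 ± 0.30). In HBS1L dox replicate 2 its 0.0501 CPM is worth 3 counts, so the size of this fold change rests on few counts. The windows are 80 bases on the + strand, chr15:40953225-40953304 for CHAC1 and chr19:48755433-48755512 for FGF21, with TTGCATC in capitals.
CHAC1: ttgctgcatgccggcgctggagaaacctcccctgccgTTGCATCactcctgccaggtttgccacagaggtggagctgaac
FGF21: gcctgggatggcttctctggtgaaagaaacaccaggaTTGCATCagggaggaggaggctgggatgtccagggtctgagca
The element began 209 bases before the start in CHAC1 and 54 bases before it in FGF21. A match of letters is a description and does not show binding.

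Messages for cytosolic aminoacyl-tRNA synthetases, which load amino acids on tRNA and several of which ATF4 raises, were called higher in 15 of 20 cases and lower in 1 (median 0.43). GARS1, for glycine, had 709, 735 and 736 CPM in PELO dox against 335, 326 and 337 CPM in HBS1L dox libraries (log2 fold change 1.13 ± 0.04, adjusted p = 9.02e-24), and SARS1, for serine, averaged 360.2 CPM in PELO dox against 186 CPM in HBS1L dox libraries (log2 fold change 0.95 ± 0.04). QARS1, for glutamine, was the one called lower, at 114 CPM in PELO dox against 143 CPM in HBS1L dox libraries (log2 fold change -0.33 ± 0.05). Among genes that answer unfolded proteins in the endoplasmic reticulum 13 of 22 genes were called higher and 6 lower (median 0.33). XBP1, its transcription factor, had 297, 309 and 306 CPM in PELO dox libraries and 76.9, 77.0 and 76.8 CPM in HBS1L dox libraries (log2 fold change 1.98 ± 0.05, adjusted p = 7.81e-28). HSPA5, the chaperone BiP, had 1973, 1871 and 1875 CPM in PELO dox and 647, 659 and 700.0 CPM in HBS1L dox libraries (log2 fold change 1.51 ± 0.05, adjusted p = 3.62e-25). PDIA4, a disulfide isomerase of the same compartment, was lower instead, at 206 CPM in PELO dox against 275 CPM in HBS1L dox libraries (log2 fold change -0.42 ± 0.04).

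The BCL2 family decides on the release of cytochrome c in cell death. Of 16 members tested, 8 were called higher and 3 lower (median 0.35), on both sides of cell death. Over all genes tested 28.9% were called higher and 31.1% lower. BBC3, the gene for the killer PUMA, had 41.5, 41.1 and 40.0 CPM in PELO dox against 15.8, 18.1 and 17.0 CPM in HBS1L dox libraries (log2 fold change 1.27 ± 0.06, adjusted p = 5.50e-20). BCL2L1, which encodes the protective BCL-XL, had 235, 215 and 217 CPM in PELO dox and 97.4, 98.7 and 105 CPM in HBS1L dox libraries (log2 fold change 1.15 ± 0.05, adjusted p = 9.24e-22), and the antisense gene ABALON overlaps 43.0% of its exons. BMF, a death-promoting member, was lower, at 1.20 CPM in PELO dox against 2.59 CPM in HBS1L dox libraries (log2 fold change -1.11 ± 0.14).

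NF-kB targets, genes of inflammation and survival, were called higher in 16 of 21 cases tested, out of 26 listed, and lower in 2 (median 1.10). CXCL5, a chemokine, had 86.6, 99.6 and 101 CPM in PELO dox libraries against 29.3, 30.0 and 29.9 CPM in HBS1L dox libraries (log2 fold change 1.69 ± 0.05, adjusted p = 8.16e-25). RELB, a subunit of the non-canonical pathway, had 39.0, 38.5 and 37.98 CPM in PELO dox and 13.4, 14.1 and 13.6 CPM in HBS1L dox libraries (log2 fold change 1.49 ± 0.05, adjusted p = 1.73e-23). TNFAIP2 was called lower at 61.0 CPM in PELO dox against 70.7 CPM in HBS1L dox libraries (log2 fold change -0.21 ± 0.06), but its groups overlapped and without PELO dox replicate 3 its adjusted p was 0.0604. Summed over the list, PELO dox libraries held 1070.0 to 1079 CPM, HBS1L dox libraries 586 to 591 CPM, the PELO line without dox 881 to 906 CPM and the HBS1L line without dox 842 to 876 CPM.

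Immediate early and KLF genes went both ways: 15 of 25 were called higher and 9 lower (median 0.23), against 28.9% and 31.1% of all genes tested. KLF6, a zinc finger factor, had 708, 710.0 and 731 CPM in PELO dox against 209, 204 and 202 CPM in HBS1L dox libraries (log2 fold change 1.80 ± 0.04, adjusted p = 6.67e-30), and KLF4 averaged 48.4 CPM in PELO dox against 11.97 CPM in HBS1L dox libraries (log2 fold change 2.01 ± 0.06). FOS, a subunit of AP-1, was lower, with 35.4, 34.0 and 33.0 CPM in PELO dox against 83.5, 85.5 and 88.8 CPM in HBS1L dox libraries (log2 fold change -1.33 ± 0.09, adjusted p = 1.35e-14). The NTC dox libraries held 49.8 ± 4.94 CPM of FOS, between both. The AP-1 letters TGACTCA stood in 1 of the 10 promoters found for members called higher, and in 1 of 18 for members tested. They stood in 381 of 12115 promoters of genes tested (3.14%) and in 1344 of 27305 promoters in all (4.92%). RAS-MAPK output genes were called higher in 11 of 16 cases and lower in 1 (median 0.36). Without dox 10 were already called higher and 1 lower in the PELO line (median 0.20). Over all genes tested the shares without dox were 16.0% and 13.7%. The dox responses differed toward higher levels in 7 and toward lower in 2 (median 0.10), against 21.9% and 21.3% of all genes. AREG, a ligand of the EGF receptor, averaged 184 CPM in PELO dox against 87.0 CPM in HBS1L dox libraries (log2 fold change 1.08 ± 0.05), PHLDA1 811 CPM in PELO dox against 485 CPM in HBS1L dox libraries (log2 fold change 0.74 ± 0.04), and SPRY1, a brake on the pathway, 22.7 CPM in PELO dox against 45.6 CPM in HBS1L dox libraries (log2 fold change -1.004 ± 0.06).

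**Figure D3:**
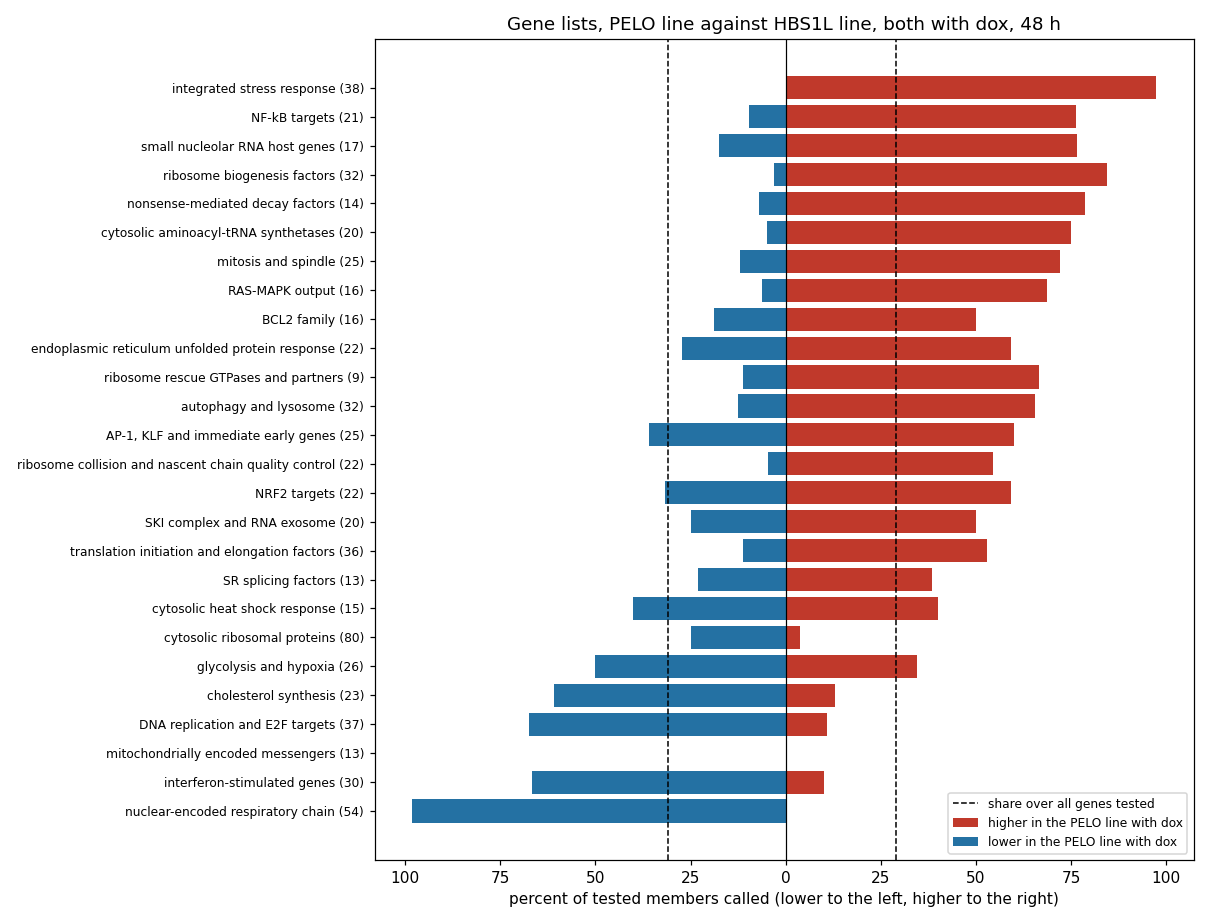
Percent of the tested members of each gene list shown called higher (bars to the right) or lower (bars to the left) in PELO dox against HBS1L dox libraries, with the number tested in parentheses; the lists shown are ordered by median log2 fold change and do not include cell type markers. Dashed lines give the shares over all genes tested, 28.9% higher and 31.1% lower. Integrated stress response genes lie at the top and nuclear-encoded respiratory chain genes at the bottom.

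Host genes of small nucleolar RNAs, spliced RNAs whose introns hold guide RNAs for ribosome modification and which nonsense-mediated decay removes, were called higher in 13 of 17 cases and lower in 3 (median 0.68). SNHG1 had 198, 221 and 213 CPM in PELO dox and 82.0, 85.4 and 82.6 CPM in HBS1L dox libraries (log2 fold change 1.34 ± 0.06, adjusted p = 5.09e-21). GAS5 stood at 616 CPM in PELO dox against 268 CPM in HBS1L dox libraries (log2 fold change 1.199 ± 0.06), while SNHG10 was lower, at 5.59 CPM in PELO dox against 10.4 CPM in HBS1L dox libraries (log2 fold change -0.90 ± 0.08), with 20.1% of its exons under GLRX5 on the other strand. Without dox the lines stood the other way round for this list, with 1 member called higher and 12 lower in the PELO line (median -0.20), where 16.0% of all genes tested were called higher and 13.7% lower.

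Factors of nonsense-mediated decay, which degrades messages with an early stop, were called higher in 11 of 14 cases and lower in 1 (median 0.44). SMG5 averaged 141 ± 8.50 CPM in PELO dox libraries and 67.8 ± 1.71 CPM in HBS1L dox libraries (log2 fold change 1.06 ± 0.06, adjusted p = 4.84e-17). It adapts the phosphorylated factor UPF1 to decay. MAGOH, of the exon junction complex, was called lower at 88.9 CPM in PELO dox against 97.1 CPM in HBS1L dox libraries (log2 fold change -0.13 ± 0.06), but its groups overlapped and the call did not hold under several other settings. SR splicing factors were called higher in 5 and lower in 3 of 13 cases (median 0.08), against 28.9% and 31.1% of all genes tested. The count called higher was 3 with the length-dependent offset and with library totals in place of TMM, and the count called lower was 1 without PELO dox replicate 1 and without HBS1L dox replicate 2. Without dox 0 were called higher and 8 lower in the PELO line (median -0.17), against 16.0% and 13.7% of all genes tested. The dox responses differed toward higher levels in 8 members and toward lower in 1 (median 0.29), against 21.9% and 21.3% of all genes. TRA2B averaged 303 CPM in PELO dox against 202 CPM in HBS1L dox libraries (log2 fold change 0.59 ± 0.05), TRA2A 121 CPM in PELO dox against 95.6 CPM in HBS1L dox libraries (log2 fold change 0.35 ± 0.05) and SRSF9 157 CPM in PELO dox against 215 CPM in HBS1L dox libraries (log2 fold change -0.46 ± 0.05); GATC on the other strand overlaps 46.2% of the exons of SRSF9.

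Translation factors and ribosome assembly genes leaned up in PELO dox against HBS1L dox cells, while ribosomal proteins did not. Of 36 initiation and elongation factors 19 were called higher and 4 lower (median 0.12). With library totals in place of TMM 9 were called lower. Without dox 5 were called higher and 16 lower in the PELO line (median -0.10), against 16.0% and 13.7% of all genes tested. The dox responses differed toward higher levels in 21 members and toward lower in 3 (median 0.19), against 21.9% and 21.3% of all genes. EIF5, which like EIF1 acts in start codon choice, averaged 687 CPM in PELO dox against 329 CPM in HBS1L dox libraries (log2 fold change 1.06 ± 0.04), and EIF1 983 CPM in PELO dox against 589 CPM in HBS1L dox libraries (log2 fold change 0.74 ± 0.04). EIF2B1, a subunit of the exchange factor that the stress kinases block, was lower, at 25.8 CPM in PELO dox against 32.5 CPM in HBS1L dox libraries (log2 fold change -0.34 ± 0.05). Of 32 ribosome biogenesis factors 27 were called higher and 1 lower (median 0.46). DDX21, a nucleolar helicase, had 823, 854 and 849.8 CPM in PELO dox libraries and 437, 425 and 414 CPM in HBS1L dox libraries (log2 fold change 0.99 ± 0.04, adjusted p = 2.66e-21), and WDR43 averaged 277 CPM in PELO dox against 144 CPM in HBS1L dox libraries (log2 fold change 0.95 ± 0.04). FBL, the methyltransferase fibrillarin, was the one called lower, at 341 CPM in PELO dox against 410.1 CPM in HBS1L dox libraries (log2 fold change -0.27 ± 0.06).

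Cytosolic ribosomal protein genes were called higher in 3 and lower in 20 of 80 cases (median -0.12), where 31.1% of all genes were called lower. The count called lower was 12 without PELO dox replicate 1, 28 with the length-dependent offset and 63 with library totals in place of TMM. The lines already differed without dox, when 76 members were called lower and 0 higher in the PELO line (median -0.25). Over all genes tested 13.7% were called lower and 16.0% higher without dox. The dox responses differed toward higher levels in 11 members and toward lower in 0 (median 0.14), against 21.9% and 21.3% of all genes. Group means with dox lay above those without dox in 76 of the 80 genes in the PELO line, 21 in the HBS1L line and 74 in the NTC line. RPL7A averaged 1948 CPM in PELO dox against 2296 CPM in HBS1L dox libraries (log2 fold change -0.24 ± 0.05) and RPL22 322 CPM in PELO dox against 408 CPM in HBS1L dox libraries (log2 fold change -0.34 ± 0.05). RPL22L1, the paralog of RPL22, was higher, with 159.8, 215 and 219.8 CPM in PELO dox against 95.4, 96.7 and 90.7 CPM in HBS1L dox libraries (log2 fold change 1.07 ± 0.10, adjusted p = 7.67e-10). PELO dox replicate 1 was the lowest of its group, yet above all HBS1L dox libraries. Ribosomal protein genes have many near-identical pseudogenes, and 97.2% of the RPL7A values were fractional, so shared reads may enter these levels.

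Nuclear-encoded genes of the respiratory chain showed the opposite picture to the stress genes. Of 54 members 53 were called lower and 0 higher in PELO dox cells, with a median of -0.48. The exception, NDUFS1, averaged 134 CPM in PELO dox and 138 CPM in HBS1L dox libraries. NDUFB4, of complex I, had 50.8, 56.5 and 55.1 CPM in PELO dox against 89.9, 92.5 and 87.2 CPM in HBS1L dox libraries (log2 fold change -0.73 ± 0.06, adjusted p = 5.84e-14). SDHA, the catalytic subunit of complex II, had 129, 125 and 125 CPM in PELO dox and 164, 164 and 172 CPM in HBS1L dox libraries (log2 fold change -0.40 ± 0.03, adjusted p = 1.94e-12). NDUFB6, at 17.0 CPM in PELO dox against 35.3 CPM in HBS1L dox libraries (log2 fold change -1.06 ± 0.09), was the one member at least 2-fold lower. Without PELO dox replicate 1 and with the length-dependent offset 53 were again called lower. Part of the gap was there without dox, when 46 members were lower and 1 higher in the PELO line (median -0.24). Over all genes tested 13.7% were lower and 16.0% higher without dox. The dox responses differed in 36 members, all toward lower levels in the PELO line (median -0.26). Of all genes tested, 21.9% differed toward higher and 21.3% toward lower levels. Of the 13 messages that mitochondrial DNA encodes, edgeR called 0 in either direction (median -0.34), and 0 at an unadjusted p under 0.05. DESeq2 called 0 lower, while 4 were called with library totals, 6 by limma on the authors' log2 values and 11 by edgeR on the compared groups alone.

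Other metabolic lists were mixed, where 28.9% of all genes tested were called higher and 31.1% lower. Cholesterol synthesis genes were called lower in 14 and higher in 3 of 23 cases (median -0.20). HSD17B7, a reductase of the pathway, averaged 14.99 CPM in PELO dox against 26.6 CPM in HBS1L dox libraries (log2 fold change -0.83 ± 0.06), INSIG1, which holds its master regulator back, 26.5 CPM in PELO dox against 39.5 CPM in HBS1L dox libraries (log2 fold change -0.58 ± 0.04), and the demethylase gene CYP51A1 35.5 CPM in PELO dox against 28.3 CPM in HBS1L dox libraries (log2 fold change 0.33 ± 0.05). A gene on the same strand overlaps 83.2% of the exons of CYP51A1, so its reads may be shared. Glycolysis and hypoxia genes were called higher in 9 and lower in 13 of 26 cases (median -0.17). HK2, the hexokinase that starts glycolysis, was higher, with 187, 162 and 163 CPM in PELO dox against 50.4, 49.4 and 52.8 CPM in HBS1L dox libraries (log2 fold change 1.74 ± 0.06, adjusted p = 2.45e-24). ALDOC, an aldolase, and SLC2A3, a glucose transporter, were lower, at log2 fold changes of -1.52 ± 0.13 and -0.58 ± 0.06.

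Autophagy and lysosome genes were called higher in 21 of 32 cases and lower in 4 (median 0.28), against 28.9% and 31.1% of all genes tested. MAP1LC3B, which coats autophagosomes, had 332, 376 and 372 CPM in PELO dox and 136, 132 and 131 CPM in HBS1L dox libraries (log2 fold change 1.44 ± 0.05, adjusted p = 9.18e-25). TFE3, a factor that drives lysosome genes, had 229, 218 and 218 CPM in PELO dox and 98.1, 98.0 and 102 CPM in HBS1L dox libraries (log2 fold change 1.16 ± 0.03, adjusted p = 1.42e-25), while the lysosomal protease gene CTSB was lower, at 207 CPM in PELO dox against 309.8 CPM in HBS1L dox libraries (log2 fold change -0.58 ± 0.05). NRF2 targets, genes of oxidant defence, were called higher in 13 and lower in 7 of 22 cases (median 0.17). MAFF, which pairs with NRF2, averaged 95.8 CPM in PELO dox against 32.3 CPM in HBS1L dox libraries (log2 fold change 1.57 ± 0.04), NFE2L2, the gene of NRF2 itself, 153 CPM in PELO dox against 61.9 CPM in HBS1L dox libraries (log2 fold change 1.31 ± 0.04), and the peroxiredoxin gene PRDX1 654 CPM in PELO dox against 991 CPM in HBS1L dox libraries (log2 fold change -0.60 ± 0.05). Other genes overlap 20.9% of the exons of NFE2L2, on its strand, and 24.9% of those of PRDX1, on the other. Cytosolic heat shock genes were called higher in 6 and lower in 6 of 15 cases (median -0.04), against the same shares of all genes tested. The co-chaperone genes DNAJB1 and DNAJB6 were higher by 0.50 ± 0.05 and 0.47 ± 0.04 on the log2 scale, and the small chaperone gene HSPB1 had a log2 fold change of -0.71 ± 0.06.

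Replication and mitosis genes differed in direction. DNA replication and E2F target genes were called lower in 25 of 37 cases and higher in 4 (median -0.21). The lines differed by nearly as much without dox, when 19 members were called lower and 1 higher in the PELO line (median -0.18). Without dox 13.7% of all genes tested were called lower and 16.0% higher. The dox responses differed toward lower levels in 10 of 37 members and toward higher in 3 (median -0.06). Over all genes tested 21.3% differed toward lower and 21.9% toward higher levels. PRIM1, a subunit of primase, averaged 9.06 ± 0.247 CPM in PELO dox libraries and 16.2 ± 0.357 CPM in HBS1L dox libraries (log2 fold change -0.84 ± 0.06, adjusted p = 1.13e-13), with 21.6% of its exons shared with another gene on its strand, and POLD1, the catalytic subunit of polymerase delta, 54.8 CPM in PELO dox against 84.5 CPM in HBS1L dox libraries (log2 fold change -0.63 ± 0.05). MCM10, a replication initiation factor, was higher, at 44.4 CPM in PELO dox against 32.0 CPM in HBS1L dox libraries (log2 fold change 0.47 ± 0.06). Mitosis and spindle genes were called higher in 18 of 25 cases and lower in 3 (median 0.39). TPX2, a spindle assembly factor, had 635, 613 and 615 CPM in PELO dox against 379, 368 and 394 CPM in HBS1L dox libraries (log2 fold change 0.71 ± 0.05, adjusted p = 2.38e-15), and TTK, a spindle checkpoint kinase, averaged 89.3 CPM in PELO dox against 60.8 CPM in HBS1L dox libraries (log2 fold change 0.55 ± 0.06). PTTG1, the gene for securin, was lower, at 109 CPM in PELO dox against 142 CPM in HBS1L dox libraries (log2 fold change -0.38 ± 0.05). In bulk RNA, a change in the share of cells in a phase and a change in RNA per cell cannot be told apart.

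Interferon-stimulated genes, which act against viruses, were called lower in 20 of 30 cases tested, out of 35 listed, and higher in 3 (median -0.45). IFIT1, which binds foreign RNA caps, had 17.5, 17.8 and 15.8 CPM in PELO dox libraries against 39.9, 42.0 and 42.8 CPM in HBS1L dox libraries (log2 fold change -1.29 ± 0.06, adjusted p = 5.88e-19). BST2, which tethers budding virus, had 4.70, 4.92 and 4.91 CPM in PELO dox and 13.8, 13.5 and 13.4 CPM in HBS1L dox libraries (log2 fold change -1.49 ± 0.08, adjusted p = 4.03e-18). IFIT5 was higher instead, at 33.8 CPM in PELO dox against 21.7 CPM in HBS1L dox libraries (log2 fold change 0.64 ± 0.05). Members called higher numbered 1 with the length-dependent offset and with no filter on low counts. Without dox the lines stood the other way, with 13 members called higher and 0 lower in the PELO line (median 0.20). Over all genes tested 16.0% were called higher and 13.7% lower without dox. Here the dox responses of the lines differed toward lower levels in 22 members and toward higher in 1, with a median difference of -0.80. Of all genes tested, 21.3% differed toward lower and 21.9% toward higher levels.

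Markers of cell types were also compared, where 28.9% of all genes tested were called higher and 31.1% lower. With 3 to 9 members tested per list, the counts are only a description. Of 12 epithelial markers 9 were tested, 4 called higher and 2 lower, and the 9 summed to 3377 to 3455 CPM in PELO dox and 3597 to 3712 CPM in HBS1L dox libraries. OCLN, a tight junction protein, averaged 62.6 CPM in PELO dox against 20.9 CPM in HBS1L dox libraries (log2 fold change 1.58 ± 0.05), CLDN4, another, 139 CPM in PELO dox against 79.1 CPM in HBS1L dox libraries (log2 fold change 0.81 ± 0.05), and the keratin gene KRT19 136 CPM in PELO dox against 262 CPM in HBS1L dox libraries (log2 fold change -0.94 ± 0.06). Of 10 fibroblast markers 4 were tested, 3 called lower and PDGFRB, under 1 CPM, not called, and they summed to 91.7 to 101 CPM in PELO dox and 191 to 202 CPM in HBS1L dox libraries, nearly all from the collagen gene COL1A2 at 91.4 CPM in PELO dox against 181 CPM in HBS1L dox libraries (log2 fold change -0.99 ± 0.05). COL3A1, another collagen gene, stood at 4.52 CPM in PELO dox against 14.1 CPM in HBS1L dox libraries (log2 fold change -1.64 ± 0.09). Of 10 leukocyte markers 3 were tested, 2 higher and 1 lower, with sums of 28.5 to 28.8 CPM in PELO dox and 28.3 to 30.6 CPM in HBS1L dox libraries. CD14 had a log2 fold change of -1.68 ± 0.14 and ITGAM of 1.34 ± 0.25; CD68, called at 0.16 ± 0.05, lies almost wholly under another gene on its strand (85.8% of its exons). Of 8 endothelial markers 3 were tested and all 3 called lower, with sums of 56.3 to 64.4 CPM in PELO dox and 75.5 to 83.9 CPM in HBS1L dox libraries, among them ENG at -0.39 ± 0.05 and EMCN at -0.83 ± 0.13 on the log2 scale.

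The same lines without dox show what the guides' lines differed by before the nuclease was induced. Without dox 6176 genes (29.7%) were called between the PELO and HBS1L lines, but 158 (0.761%) were at least 2-fold apart, 0.327% higher and 0.433% lower in the PELO line. Of the 12459 genes called with dox, 3542 (28.4%, or 57.4% of those called without dox) were called in the same direction without dox and 1063 in the opposite direction. At 2-fold, 50 genes were shared in direction (2.53% of those with dox and 31.6% of those without dox) and 7 were opposite. The count without dox was 3770 when PELO no dox replicate 2 was left out. Integrated stress response genes had 7 members called higher and 2 lower without dox (median 0.00), and NF-kB targets 5 higher and 1 lower (median 0.06). Over all genes tested 16.0% were called higher and 13.7% lower without dox.

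The dox responses themselves were compared as the PELO response minus the HBS1L response, each dox over no dox. They differed in 8976 genes (43.2%), 4555 toward higher and 4421 toward lower levels in the PELO line, and by at least 2-fold in 1538 (7.41%), 3.47% of all genes toward higher and 3.93% toward lower levels. With library totals in place of TMM the split was 3479 and 5825. For GADD45A the log2 difference of responses was 4.36 ± 0.10, for KLHDC7B 4.41 ± 0.26 and for ATF3 3.78 ± 0.13. TJP3 and CDC42EP5 had -2.30 ± 0.22 and -2.31 ± 0.26, while SELENBP1, ANKEF1 and SFRP1, which were already lower in the PELO line without dox, had -1.21 ± 0.19, -1.14 ± 0.31 and -0.91 ± 0.14. Integrated stress response genes differed in response in 36 of 38 cases, all toward higher levels in the PELO line (median 1.35).

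**Figure D4:**
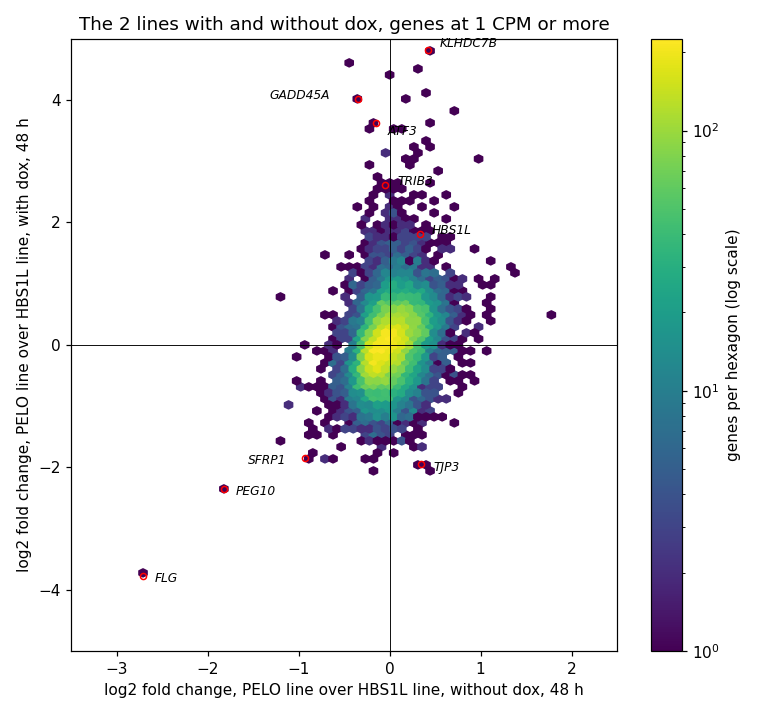
Log2 fold change of the PELO line over the HBS1L line at 48 h, with dox on the vertical axis and without dox on the horizontal axis, for genes at 1 CPM or more; colour gives the number of genes per hexagon on a log scale, and circled genes are named. Most of the spread is vertical. GADD45A, ATF3 and TRIB3 lie high near 0 on the horizontal axis, and FLG and PEG10 lie low on both axes.

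The NTC line with dox placed the 2 guides. PELO dox differed from NTC dox in 11890 genes (57.3%), 2041 (9.83%) of them at least 2-fold, with 4.28% of all genes 2-fold higher and 5.55% lower. HBS1L dox differed from NTC dox in 4791 genes (23.1%), 172 (0.828%) of them at least 2-fold, with 0.525% of all genes 2-fold higher and 0.303% lower. Both comparisons share the NTC dox libraries, and the first count split into 5741 higher and 6149 lower, or 4544 and 7507 with library totals. The second count rested in part on single libraries: it was 2803 without HBS1L dox replicate 2 and 2158 without NTC dox replicate 1. Of the 869 genes 2-fold higher in PELO dox than in HBS1L dox cells, the NTC dox mean lay nearer to HBS1L dox in 817 (94.0%), and of the 1111 lower in 977 (87.9%). GADD45A had a log2 fold change of 4.51 ± 0.08 for PELO dox over NTC dox and 0.50 ± 0.07 for HBS1L dox over NTC dox, and ATF3 4.12 ± 0.10 for PELO dox and 0.49 ± 0.11 for HBS1L dox. TJP3 had -2.31 ± 0.16 for PELO dox and -0.36 ± 0.12 for HBS1L dox. The integrated stress response list had 36 members higher and 0 lower in PELO dox (median 1.28), where 27.6% of all genes tested were higher and 29.6% lower. In HBS1L dox 5 members were higher and 4 lower (median 0.02), where 9.47% of all genes were higher and 13.6% lower.

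Against NTC dox, respiratory chain genes differed mostly downward in PELO dox and upward in HBS1L dox cells: 0 were higher and 50 lower in PELO dox cells (median -0.33), and 23 higher and 1 lower in HBS1L dox cells (median 0.17). Of 80 ribosomal protein genes, 12 were higher and 2 lower in PELO dox cells, where 27.6% and 29.6% of all genes tested were. In HBS1L dox cells 51 were higher and 0 lower, against 9.47% and 13.6% of all genes. Mitosis genes were higher than in NTC dox in both, 22 of 25 in PELO dox (median 0.56) and 17 in HBS1L dox cells (median 0.21). Interferon-stimulated genes were lower than in NTC dox in both, 25 of 30 in PELO dox (median -0.93) and 21 in HBS1L dox cells (median -0.33).

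At 96 h with dox, in other libraries of the same lines, more genes were called. There 13667 genes (65.8%) were called, 3490 (16.8%) at least 2-fold, 1331 (6.41%) of these higher and 2159 (10.4%) lower in PELO dox cells. Of the genes called at 48 h, 9482 (76.1%, or 69.4% of those at 96 h) were called in the same direction at 96 h and 595 in the opposite direction. At 2-fold, 1309 were shared in direction (66.1% of those at 48 h and 37.5% of those at 96 h) and 7 were opposite. Whether the difference itself changed between the times was not tested.

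Lists differed in what was seen at 96 h. Integrated stress response genes were called higher in 24 and lower in 4 cases, where 33.1% of all genes tested were called higher and 32.7% lower. Their median was 0.48 at 96 h and 1.48 at 48 h. INHBE averaged 7.83 ± 0.609 CPM in PELO dox libraries and 4.95 ± 0.856 CPM in HBS1L dox libraries at 96 h, and ATF3 52.3 ± 3.22 CPM in PELO dox and 10.9 ± 1.84 CPM in HBS1L dox libraries. GADD45A had 868 ± 29.1 CPM in PELO dox and 63.5 ± 7.74 CPM in HBS1L dox libraries (log2 fold change 3.77 ± 0.08, adjusted p = 8.00e-29). Mitosis genes, mostly higher at 48 h, had 3 called higher and 20 lower at 96 h (median -0.37). Interferon-stimulated genes had 2 higher and 27 lower (median -1.31), and DNA replication genes 3 higher and 30 lower (median -0.54). The 8 largest falls of 48 h were all called lower again, with log2 fold changes from -4.40 ± 0.47 for FLG to -2.18 ± 0.10 for SFRP1.

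Exonic length moved with the difference between the lines, with dox and without it. Among coding genes at 1 CPM or more, the median log2 fold change of PELO dox over HBS1L dox was -0.21 for 1104 genes under 2 kb and 0.21 for 1417 genes over 10 kb. Without dox the same medians, PELO line over HBS1L line, were -0.18 and 0.22. Genes called 2-fold higher had a median exonic length of 5184 bases and those 2-fold lower 4278 bases, against 5065 bases over all coding genes at that level. The median exonic length was 2774.5 bases in the respiratory chain list and 4232.5 bases in the integrated stress response list. With an offset for length fitted in each library, 12393 genes were called, 864 of them 2-fold higher and 1057 2-fold lower.

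**Figure D5:**
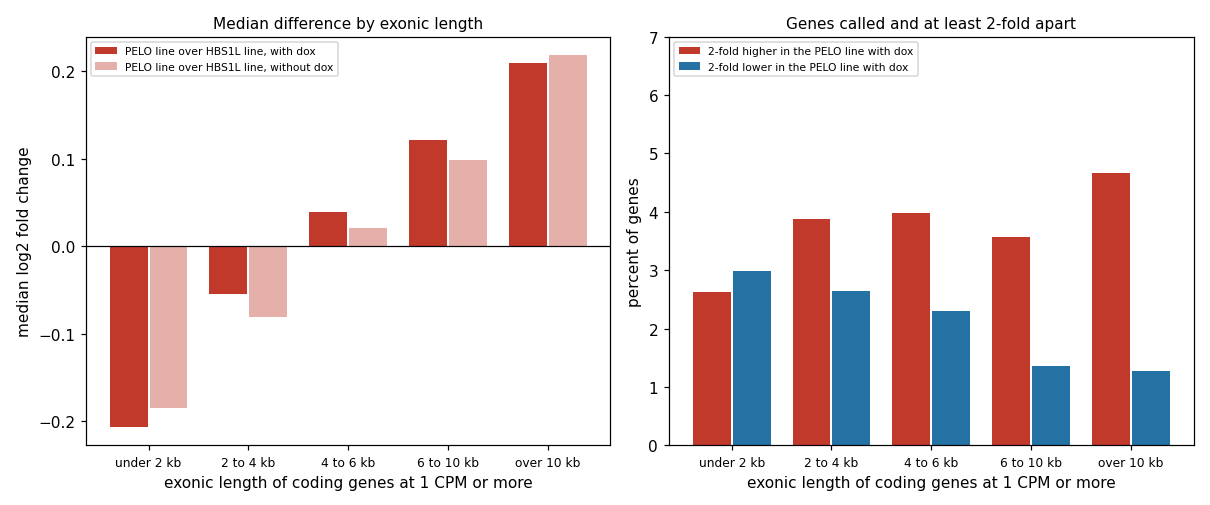
Left, median log2 fold change of the PELO line over the HBS1L line at 48 h by exonic length of coding genes at 1 CPM or more, with dox (dark bars) and without (pale bars). Right, percent of these genes called and at least 2-fold higher (red) or lower (blue) in PELO dox libraries. The medians run from -0.21 to 0.21 with dox and from -0.18 to 0.22 without.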

How the data were processed

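Gene-level expression was measured in 36 libraries, 12 groups of 3. The authors deposited a table of expected counts per gene, not normalized, in which 45.6% of the values above 0 are fractional, and a table of log2 values for 17138 genes. The submitters' processing notes name build GRCh38.p13 and, without role or version, limma, edgeR, Subread, featureCounts and DRAGEN. Whether counting used the strand is not stated there. Fractional counts may hold reads shared between genes.

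Counts were rounded to whole numbers. Genes were kept by filterByExpr (minimum count 10, minimum total 15), leaving 20767 of 61544, and scaled by TMM. A quasi-likelihood model over the 12 groups was fitted with edgeR 4.0.16 in R 4.3.3, with Benjamini-Hochberg adjustment over all genes tested and a threshold of 0.05. A single-gene exact permutation test of 3 against 3 libraries could not go below p = 0.1. Symbols were matched for 61445 IDs; coordinates and overlaps come from GENCODE 29 on GRCh38.

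Named genes were PELO and HBS1L, the 8 largest rises and 8 largest falls among called genes with a symbol, a mean of at least 1 CPM and groups that do not overlap, and for each of the 31 lists the 2 called members ranked first by adjusted p in the commoner direction plus 1 in the other. Further list members are named as examples, chosen after their values were seen. The members and lists were chosen with earlier results of these data known. The 31 lists hold 757 genes, 7 of them in more than 1 list. A list and some named genes are not reported here.

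Alternatives were DESeq2 1.42.0 size factors and its Wald test, library totals, no filter, unrounded counts, a replicate block, limma 3.58.1 on the deposited log2 values, fits of the compared groups alone, each replicate left out, and a length-dependent offset chosen after seeing the data. The labels do not say whether equal replicate numbers mark a pair, and the main fit does not pair the samples.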

Additional observations from a re-analysis of the deposited data

Results flagged for a closer look

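The dox response of the PELO line differed from that of the HBS1L line, by the interaction term of the edgeR fit, in 8976 genes. Among the targeted genes and the 8 largest rises and falls, the log2 difference of responses, PELO minus HBS1L, was 1.48 for HBS1L, 4.41 for KLHDC7B, 4.40 for L3MBTL2-AS1, 4.36 for GADD45A, 4.20 for ALOX5AP, 3.87 for INHBE, 3.78 for ATF3, 3.66 for CHST1 and 3.16 for NLRP10. It was -2.31 for CDC42EP5, -2.30 for TJP3, -1.75 for FAXDC2, -1.21 for SELENBP1, -1.14 for ANKEF1 and -0.91 for SFRP1. PELO, FLG and PEG10 did not pass this test.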

How the results depend on the processing

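Across settings other than leaving out a library, 11422 to 12701 genes were called between PELO dox and HBS1L dox at 48 h. With limma on the authors' log2 table, which lists 17138 genes, 554 genes were called at least 2-fold higher and 695 at least 2-fold lower; the cause was not tested. Leaving out each library in turn gave 11447 to 11908 genes, with 799 to 896 at least 2-fold higher and 999 to 1177 lower. The range was 3770 to 6843 without dox, the lowest without PELO no dox replicate 2, and 8419 to 8787 for the difference of responses. It was 11094 to 11260 for PELO dox against NTC dox, 2158 to 4727 for HBS1L dox against NTC dox, and 12765 to 13260 at 96 h. A group left with 2 libraries keeps a spread pooled over all groups.

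With the replicate block the counts were 12385 with dox (863 and 1114 at least 2-fold higher and lower), 6037 without dox, 8902 for the difference of responses, 11779 and 4600 for PELO dox and HBS1L dox against NTC dox, and 13597 at 96 h. Same-numbered PELO dox and HBS1L dox libraries had deviations correlated at -0.24, 0.26 and -0.38, and not every library correlated best with its own number.

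Of the named genes, MAGOH had a log2 fold change of 0.019 with the length-dependent offset (adjusted p = 0.730) and lost its call with DESeq2 size factors, the DESeq2 Wald test, the replicate block, the compared groups alone, and without PELO dox replicates 1 or 2 or HBS1L dox replicates 1 or 2. CD68 lost its call with library totals and with no filter, and TNFAIP2 without PELO dox replicate 3. Ribosomal proteins called lower numbered 45 with no filter, 34 with limma and 12 without HBS1L dox replicate 2. Synthetases and ribosome biogenesis factors called lower numbered 2 each with library totals and with the length-dependent offset, and synthetases also with limma. With library totals 2 RAS-MAPK genes were called lower. NF-kB targets called lower numbered 1 with the length-dependent offset and without PELO dox replicates 1 or 3. Epithelial markers called lower numbered 4 with library totals and with no filter, leukocyte markers called higher 1 with these settings and with limma, endothelial markers called lower 1 with limma, and fibroblast markers called higher 1 without PELO dox replicate 1 and without HBS1L dox replicate 2. At 3 counts a library resolves no less than 0.0438 CPM, which limits what can be seen in scarce messages.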

Other observations

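Classes of genes in the annotation were also counted between PELO dox and HBS1L dox cells. Of 3554 long noncoding genes tested, 397 (11.2%) were called higher and 1143 (32.2%) lower, where 28.9% and 31.1% of all genes tested were. At least 2-fold higher were 137 (3.85%) and lower 415 (11.7%), against 4.18% and 5.35% of all genes. Their median log2 fold change was -0.31. Of 13925 protein-coding genes, 5178 (37.2%) were called higher and 4670 (33.5%) lower, with a median of 0.01. At least 2-fold apart were 610 and 501 of them. Of 2022 pseudogenes, 280 (13.8%) were called higher and 312 (15.4%) lower. Level ran along with class. Among 6309 genes under 1 CPM, 324 (5.14%) were at least 2-fold higher and 767 (12.2%) lower, and protein-coding genes at that level had a median of -0.28. Among 22 long noncoding genes over 100 CPM, 12 (54.5%) were called higher and 2 (9.09%) lower. Of all 2146 genes at that level, 44.7% were called higher and 28.1% lower.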
